A study of Homo sapiens with 30 samples.

Results

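The response of transcription to 15 min of dexamethasone (Dex) was examined in A549 cells that had first been kept in GSK591 for 7 days. It was read from 4 of the 30 libraries of the series, namely the 2 labelled as GSK591 for 7 days and then Dex for 15 min, and the 2 labelled as GSK591 for 7 days alone. A549 is a human lung adenocarcinoma line, GSK591 is an inhibitor of the arginine methyltransferase PRMT5, and Dex is a synthetic glucocorticoid. Precision run-on sequencing (PRO-seq) labels the RNA that engaged polymerases are extending in permeabilised cells, so a gene's count reports ongoing transcription and not the amount of stable mRNA. The series has 15 groups of 2 libraries, and each sample about 10000000 cells. Beside the 4 libraries, 5 other groups enter here: untreated cells, Dex for 15 min without inhibitor, GSK591 for 7 days and then Dex for 3 h, and MS023, which inhibits Type I arginine methyltransferases, for 7 days with and without Dex for 15 min. Dex was used at 100 nM and either inhibitor at 1 µM, and all groups, untreated cells included, had 0.01% DMSO. The labels do not say that the 2 libraries of a group came from separate cultures. The p-values then rest on the spread between libraries of a group, which may be technical. That spread was estimated from all 15 groups together and moderated across genes, so it is not that of the compared pairs alone.

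Glucocorticoids bind the glucocorticoid receptor, which is encoded by NR3C1 and held in the cytoplasm by chaperones such as HSP90 and FKBP5. The hormone-bound receptor moves to the nucleus, binds DNA at palindromic response elements, mostly in enhancers away from promoters, and within minutes changes the transcription of nearby genes. In lung epithelial cells its known early targets include brakes on inflammatory signalling, clock genes, metallothioneins and genes of fuel metabolism.

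The 4 libraries had 10251670 to 12173979 counts each, of which mitochondrial genes took 69.8% to 78.7% and nuclear genes 2553476 to 3413582 counts. Across 11117 genes, Pearson's r of log2 values between libraries of a group was 0.975 for GSK591 and 0.962 for GSK591 then Dex, whose pair had the second largest spread of the 15 groups. Levels are given as CPM, the counts of a gene scaled to the library size after TMM normalisation, in the order replicate 1 and replicate 2. The 12 A549 markers summed to 1391 to 1502 CPM before Dex and 1608 to 1934 CPM after it, and 12 markers of blood, stromal, endothelial, liver and muscle cells to 19.1 to 22.1 CPM over the 6 that were tested. PTPRC, CD3E and ALB, which define blood and liver cells, had at most 4 counts in any of these 4 libraries. Other markers of that list had more. CD14, also a blood marker, had 42 and 29 counts before Dex and 33 and 24 after it. COL1A1 had 53 and 26, then 38 and 48, and MYH11 78 and 81, then 71 and 105. The part of the marker shift in the results below was not tested, and in bulk samples fewer cells of a type and less RNA per cell cannot be told apart. KRT7, a keratin of simple epithelia, was the 1 A549 marker called (log2 fold change 0.36, SE 0.0953, edgeR adjusted p = 0.0291), with 187 and 190 CPM in the 2 GSK591 libraries and 246 and 237 CPM after Dex. Its call was lost under 7 of 12 alternatives, among them leaving out any 1 of the 4 libraries. PRMT5 itself, the inhibitor's target, had 7.56 and 8.98 CPM in the 2 GSK591 libraries and 6.69 and 7.99 CPM after Dex (log2 fold change -0.15, SE 0.204, edgeR adjusted p = 0.802), and its exons overlap 1 gene on the opposite strand.

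Within 15 min Dex changed 480 of the 22919 genes tested, 245 of them higher and 235 lower. A gene is called here where its adjusted p is below 0.05 in edgeR's quasi-likelihood test, adjusted by Benjamini-Hochberg over all genes tested. The share called was 2.09% of all genes, 1.07% higher and 1.03% lower. Rises were larger than falls: 88 genes rose and 39 fell by more than 1 on the log2 scale, and 18 rose and 3 fell by more than 2. The medians of the called genes were 0.79 and -0.68. Of the genes called, 191 higher and 183 lower ones are protein coding. Both Dex libraries lay beyond both GSK591 libraries in all 480, which also held for 20.2% (higher) and 21.9% (lower) of all genes tested. Counting strand is not given in the sources used here, and 89 higher and 116 lower genes have exons that overlap another gene, so their counts are uncertain. The number of calls depended on single libraries: it was 161 and 208 without replicate 1 or 2 of GSK591 alone, and 372 and 196 without replicate 1 or 2 of GSK591 then Dex. Scaling by total counts gave 66 higher and 6 lower genes, so that 91.7% of the calls were rises in place of 51.0%. With only the compared groups in the fit, so that no other group lent its spread, 126 genes were called higher and 38 lower.

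**Figure D1:**
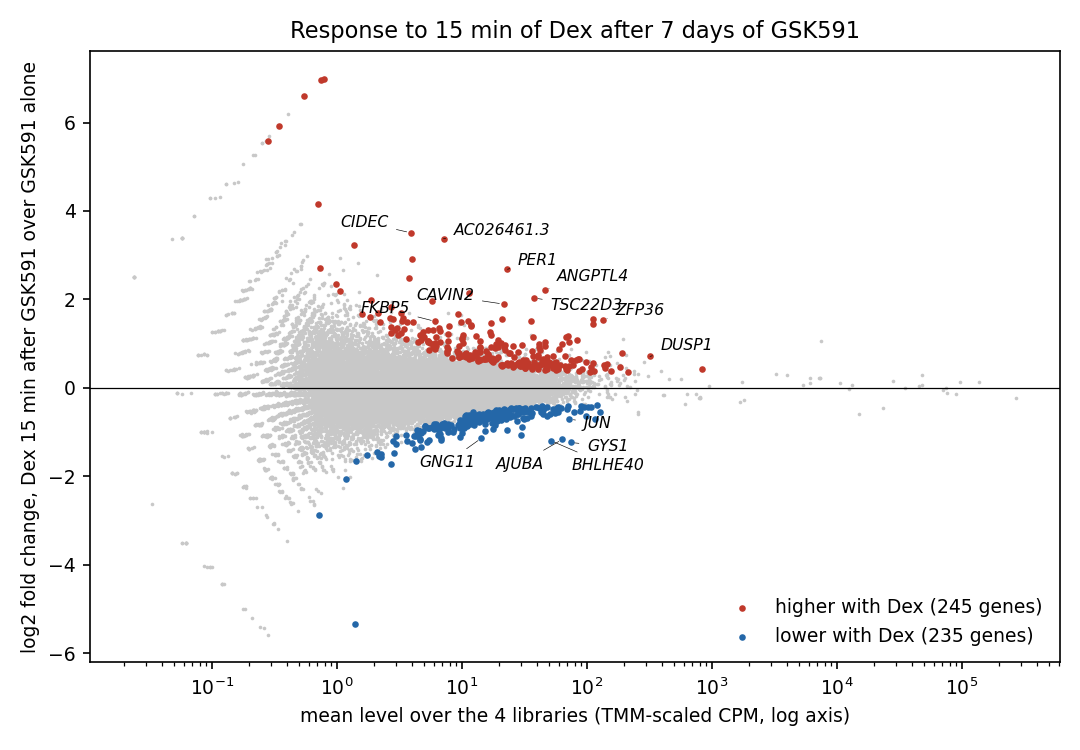
Log2 fold change of each gene (y axis) against its mean level over the 4 libraries in CPM (x axis, log scale), with 245 genes called higher in red, 235 called lower in blue and the others in grey. Rises reach further from 0 than falls at levels above 5 CPM, where PER1 stands at 2.68 and GYS1 at -1.24; the extreme values below 1 CPM rest on few counts.

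Most of the known glucocorticoid-induced genes rose. Of a list of 31 such genes, 22 rose and 0 fell, beside 1.07% of all genes tested that rose. The list's median log2 fold change was 1.05, beside -0.01 over all genes, and 30 of 31 values were above 0. Leaving out a library left 18 to 19 of the 22 calls. The list was chosen with earlier results of these data known, so its direction is a description.

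PER1 (ENSG00000179094.15, chr17:8140472-8156506, minus strand in GENCODE 29 coordinates of hg38), a repressor of the circadian clock and a direct receptor target, had 5.81 and 6.70 CPM in the 2 GSK591 libraries and 42.5 and 37.8 CPM after Dex. The Dex libraries were far above the GSK591 libraries with no overlap (log2 fold change 2.68, SE 0.165, edgeR adjusted p = 2.47e-17). On the same strand, 2 other genes share exon sequence with PER1, so its count is uncertain. PER2, its relative in the same feedback loop, had 7.79 and 9.11 CPM in the 2 GSK591 libraries and 15.6 and 12.5 CPM after Dex, and its rise was smaller (log2 fold change 0.72, SE 0.176, edgeR adjusted p = 0.0144). The call of PER2 was lost without replicate 1 of either group.

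Of the 22 list genes that rose, 6 encode regulators of inflammatory or stress signalling. TSC22D3 (ENSG00000157514.16, chrX:107713221-107777342, minus strand) encodes GILZ, a leucine zipper protein that binds and inhibits NF-kB and AP-1 factors. It had 14.3 and 15.3 CPM in the 2 GSK591 libraries and 68.7 and 52.6 CPM after Dex, without overlap between the groups (log2 fold change 2.03, SE 0.138, edgeR adjusted p = 8.67e-16). ZFP36, which binds AU-rich elements and hastens decay of cytokine mRNAs, had 65.7 and 71.7 CPM in the 2 GSK591 libraries and 207 and 194 CPM after Dex (log2 fold change 1.54, SE 0.113, edgeR adjusted p = 9.26e-15). NFKBIA, the inhibitor that holds NF-kB in the cytoplasm, had 57.2 and 63.4 CPM in the 2 GSK591 libraries and 170 and 160 CPM after Dex (log2 fold change 1.45, SE 0.109, edgeR adjusted p = 2.49e-14). Each of these 3 genes was well separated between groups, and each stayed called under all 12 alternatives tried. DUSP1, a phosphatase that inactivates the kinases p38 and JNK, had 240 and 247 CPM in the 2 GSK591 libraries and 425 and 372 CPM after Dex. Its rise was among the smaller ones (log2 fold change 0.71, SE 0.109, edgeR adjusted p = 1.92e-05) and lost its call with total counts as the scaling. TNFAIP3, a ubiquitin-editing enzyme, and BIRC3, an inhibitor of apoptosis, had rises of 1.01 and 1.05 (edgeR adjusted p = 0.0232 and 0.0159). The call of TNFAIP3 was lost when any 1 of the 4 libraries was left out, and that of BIRC3 without GSK591 replicate 2 or either Dex library. Of the 14 genes of the NF-kB feedback list, NFKBIA, TNFAIP3 and BIRC3 were the 3 that rose (21.4%, beside 1.07% of all genes called higher), 0 fell, and the median was 0.02.

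ANGPTL4, PDK4, CIDEC and IRS2, which act in fuel use or insulin signalling, were 4 others of the 22. ANGPTL4, a secreted inhibitor of lipoprotein lipase, had 17.1 and 15.4 CPM in the 2 GSK591 libraries and 85.0 and 67.0 CPM after Dex (log2 fold change 2.22, SE 0.128, edgeR adjusted p = 3.46e-18). PDK4, a kinase that switches off pyruvate dehydrogenase, had 5.23 and 6.43 CPM in the 2 GSK591 libraries and 18.9 and 14.7 CPM after Dex (log2 fold change 1.52, SE 0.188, edgeR adjusted p = 1.11e-07). Both Dex libraries were far above both GSK591 libraries in these genes. The overlapping exon of 1 opposite-strand gene makes the ANGPTL4 count uncertain. CIDEC, a lipid droplet protein, started from 7 and 3 counts and reached 54 and 73 counts after Dex, or 0.814 and 0.402 CPM in the 2 GSK591 libraries and 7.38 and 7.02 CPM after Dex. Its log2 fold change of 3.51 (SE 0.385, edgeR adjusted p = 4.82e-09) was the largest of the list but rests on those few counts before Dex. IRS2, an adaptor of the insulin receptor, had 50.2 and 36.6 CPM in the 2 GSK591 libraries and 97.0 and 98.2 CPM after Dex (log2 fold change 1.17, SE 0.128, edgeR adjusted p = 1.01e-08).

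KLF6, KLF9, CEBPB and BCL6 were the transcription factor genes described among the 22. KLF6, a zinc finger factor, had 58.0 and 56.3 CPM in the 2 GSK591 libraries and 183 and 152 CPM after Dex (log2 fold change 1.55, SE 0.109, edgeR adjusted p = 3.46e-15). KLF9, another member of the family and a known direct receptor target, had 12.7 and 14.7 CPM in the 2 GSK591 libraries and 27.3 and 28.1 CPM after Dex (log2 fold change 1.02, SE 0.195, edgeR adjusted p = 0.00283). Both were higher in each Dex library, KLF9 by a smaller step whose call was lost without GSK591 replicate 1 or Dex replicate 2. These were the 2 of 13 KLF genes that rose (15.4%, beside 1.07% of all genes called higher), and 0 fell. CEBPB, a leucine zipper factor of the acute phase response, had 48.1 and 46.2 CPM in the 2 GSK591 libraries and 102 and 92.3 CPM after Dex (log2 fold change 1.04, SE 0.126, edgeR adjusted p = 8.52e-08). CEBPD, its relative, had 92.2 and 90.6 CPM in the 2 GSK591 libraries and 115 and 113 CPM after Dex, a difference of 0.32 that was not called (SE 0.158, edgeR adjusted p = 0.375). BCL6, a transcriptional repressor, had a log2 fold change of 1.30 (edgeR adjusted p = 0.00190), lost without replicate 1 of either group.

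FKBP5, the chaperone that lowers hormone binding by the receptor, had 2.44 and 4.02 CPM in the 2 GSK591 libraries and 9.15 and 8.95 CPM after Dex. Its level was low in all 4 libraries, both Dex libraries were above both GSK591 libraries (log2 fold change 1.50, SE 0.354, edgeR adjusted p = 0.0279), and the call was lost when any 1 of the 4 was left out. NR3C1, the receptor gene, had 50.2 and 49.2 CPM in the 2 GSK591 libraries and 37.3 and 37.6 CPM after Dex. That small fall (log2 fold change -0.41, SE 0.115, edgeR adjusted p = 0.0440) was lost under 9 of the 12 alternatives. FKBP5 and NR3C1 were the 2 called of 16 genes for the receptor, its chaperones and coregulators. That is 12.5%, beside 2.09% of all genes, and the list's median log2 fold change was 0.01.

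Metallothioneins, small cysteine-rich proteins that bind zinc and copper, are classical targets of the hormone. Of 8 genes, 4 were tested, 2 of these rose and 0 fell, beside 1.07% of all genes called higher. The median log2 fold change of the 4 was 0.63. MT2A (ENSG00000125148.6, chr16:56608199-56609497, plus strand) had 9.42 and 8.44 CPM in the 2 GSK591 libraries and 27.9 and 22.3 CPM after Dex (log2 fold change 1.48, SE 0.161, edgeR adjusted p = 4.15e-09). MT1X had 15.1 and 12.1 CPM in the 2 GSK591 libraries and 25.5 and 25.9 CPM after Dex (log2 fold change 0.91, SE 0.148, edgeR adjusted p = 5.86e-05), and its exons overlap 1 gene on the same strand. In both genes the Dex libraries stood clear of the GSK591 libraries, and MT1X alone of the 2 lost its call with total counts as the scaling.

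Further induced genes were ERRFI1, a feedback inhibitor of the EGF receptor (1.51), RGS2, which shortens signalling by Gq proteins (1.19), TIPARP, an ADP-ribosyltransferase (0.89), and SGK1, a kinase that promotes sodium uptake (0.70). The 9 list genes that were not called were CEBPD, ZBTB16, TFCP2L1, EDN1, PIK3R1, KLF15, SCNN1A, CDKN1C and CRISPLD2. ZBTB16 had 1 and 0 counts before Dex and 3 and 2 after it, so no fold is given. Besides the genes for which an overlap is given, exons of TSC22D3, PER2, TNFAIP3, IRS2, CEBPB and TIPARP overlap 1 gene on the opposite strand and those of BCL6 2, which leaves their counts uncertain.

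**Figure D2:**
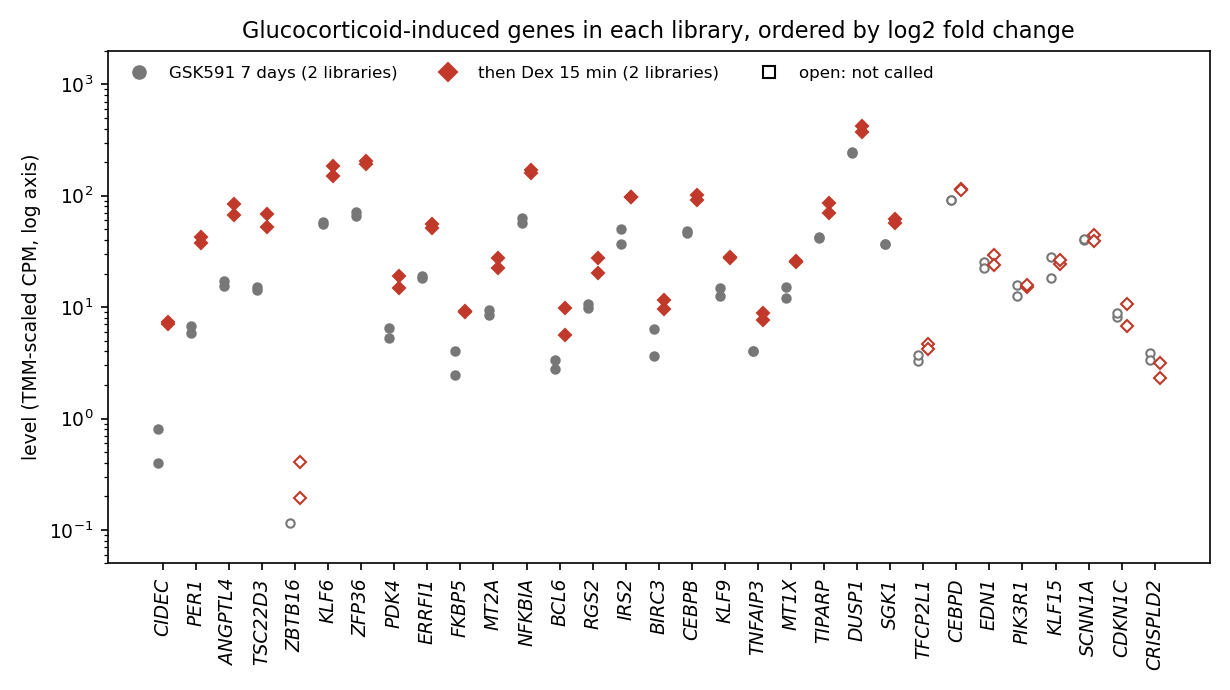
Level of each of the 31 glucocorticoid-induced genes (x axis, ordered by log2 fold change) in each library, in CPM on a log scale (y axis), with GSK591 libraries as grey circles, GSK591 then Dex as red diamonds and open symbols for genes not called. Red diamonds lie above the grey circles in the 22 genes called, from CIDEC to SGK1; a library at 0 counts (ZBTB16) has no point.

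The largest rises outside that list were read by the naming rule, which takes the 15 largest changes in each direction of the genes called, provided that their mean over the 4 libraries reached 5 CPM. AC026461.3, a long noncoding RNA gene (ENSG00000260823.1, chr16:56609501-56611375, minus strand), had 1.63 and 0.804 CPM in the 2 GSK591 libraries and 14.2 and 11.9 CPM after Dex, with a log2 fold change of 3.37 (SE 0.271, edgeR adjusted p = 2.72e-13). Its annotated end lies 3 bp from the end of MT2A on the opposite strand. POU5F1, which encodes the pluripotency factor OCT4, had 3.84 and 4.42 CPM in the 2 GSK591 libraries and 24.0 and 13.1 CPM after Dex (log2 fold change 2.14, SE 0.220, edgeR adjusted p = 9.67e-10). The 2 Dex libraries of POU5F1 lay further apart in CPM than the lower of them and the GSK591 libraries did, and its exons overlap 1 opposite-strand gene. CAVIN2 (ENSG00000168497.4, chr2:191834302-191847255, minus strand), a coat protein of caveolae, had 9.53 and 8.58 CPM in the 2 GSK591 libraries and 40.7 and 27.4 CPM after Dex (log2 fold change 1.89, SE 0.192, edgeR adjusted p = 2.23e-09). LURAP1L, a gene of little known function, had 10.7 and 10.5 CPM in the 2 GSK591 libraries and 36.3 and 26.2 CPM after Dex (log2 fold change 1.55, SE 0.151, edgeR adjusted p = 2.04e-10). DEPP1, a target of FOXO factors that regulates autophagy, had 4.65 and 5.90 CPM in the 2 GSK591 libraries and 13.5 and 15.7 CPM after Dex (log2 fold change 1.48, SE 0.196, edgeR adjusted p = 5.81e-07). All of these groups were free of overlap, and the 5 genes were called under all 12 alternatives. CAVIN2 and DEPP1 each overlap exons of 1 gene on the opposite strand.

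Among called genes 41 pairs lay within 10 kb of each other, and the direction was the same in 41 of 41. Some genes, such as MAFG, enter several of these pairs, so the pairs are not independent. The share of neighbours with the same direction over all genes tested was not measured. Reads from overlapping or abutting genes cannot be told apart where strand was not used, and many of these pairs overlap. MT2A and AC026461.3 both rose. POU5F1 rose with TCF19 (1.39) and with the noncoding gene PSORS1C3 (2.90), both of which touch it. PER2 rose with the overlapping noncoding gene AC012485.3 (1.96), TNFAIP3 with WAKMAR2 (1.83), and the histone genes H2BC13, H3C10 and H2BC14 fell together. ZFP36 rose with MIR4530 (log2 fold change 1.67, SE 0.201, edgeR adjusted p = 5.66e-08), whose 56-base hairpin lies 210 bp away on the opposite strand. MIR4530 had 5.00 and 3.75 CPM in the 2 GSK591 libraries and 15.4 and 12.9 CPM after Dex. The mature miRNA was not measured here. Its sequence, from RefSeq on GRCh38.p14 (chr19:39409629-39409646, minus strand), is shown because the gene was among the 15 largest rises, with the seed (bases 2 to 8) in capitals.
hsa-miR-4530: cCCAGCAGgacgggagcg

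Promoter windows of the called genes were searched for letters of the receptor's binding site. RefSeq windows (GRCh38.p14) of 300 bases, from 250 before to 50 after a start site, matched 165 of the 245 higher genes by symbol and 151 of the 235 lower ones. The full palindrome, AGAACA and its reverse complement TGTTCT with NNN between them, was in 0 of these and in 0 of 13189 tested genes with a window. The shorter element AGAACA, searched on both strands and contained in the full palindrome, was in the window of 27 higher genes (16.4%) and 23 lower genes (15.2%), beside 13.2% of tested genes with a window. The palindrome core ACANNNTGT, which reads the same on both strands, was in 12 higher (7.27%) and 8 lower genes (5.30%), beside 4.33% of tested genes. Over all 27305 genes of the RefSeq table, AGAACA was in 17.5% and the core in 6.54%. These matches describe letters only, and their absence says only that these letters are not in the window. The 250 bases printed here lie before a RefSeq start site of PER1, of CAVIN2 and of GNG11. PER1 is the protein-coding gene with the largest rise by the naming rule. GNG11 fell and is taken up again with the cells that had no inhibitor. RefSeq start sites differ from the ends of the GENCODE coordinates given for these genes. By those coordinates the PER1 bases lie wholly inside the gene, and the CAVIN2 and GNG11 bases partly. Capitals mark the core in CAVIN2 and AGAACA in GNG11, and PER1 has neither. Both marked elements lie inside the GENCODE bounds of their genes.
PER1 (chr17:8152405-8152654, minus strand): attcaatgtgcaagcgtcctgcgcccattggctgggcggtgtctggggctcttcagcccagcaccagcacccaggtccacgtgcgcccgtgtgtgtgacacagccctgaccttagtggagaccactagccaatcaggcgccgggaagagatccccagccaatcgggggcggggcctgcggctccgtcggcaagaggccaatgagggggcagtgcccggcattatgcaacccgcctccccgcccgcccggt
CAVIN2 (chr2:191847089-191847338, minus strand): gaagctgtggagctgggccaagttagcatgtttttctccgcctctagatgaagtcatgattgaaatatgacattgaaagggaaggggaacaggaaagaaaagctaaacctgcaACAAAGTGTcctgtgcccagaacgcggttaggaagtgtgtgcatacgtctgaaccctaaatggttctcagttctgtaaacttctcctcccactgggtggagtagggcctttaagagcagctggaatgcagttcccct
GNG11 (chr7:93921485-93921734, plus strand): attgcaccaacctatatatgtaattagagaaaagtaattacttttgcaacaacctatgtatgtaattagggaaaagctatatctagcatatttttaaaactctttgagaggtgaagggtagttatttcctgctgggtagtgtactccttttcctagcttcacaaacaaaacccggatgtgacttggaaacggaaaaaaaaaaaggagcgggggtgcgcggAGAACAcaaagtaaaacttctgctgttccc

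Falls were smaller and spread over genes of several functions. GYS1 (ENSG00000104812.14, chr19:48968125-48993310, minus strand), muscle glycogen synthase, had 106 and 102 CPM in the 2 GSK591 libraries and 43.3 and 45.0 CPM after Dex (log2 fold change -1.24, SE 0.130, edgeR adjusted p = 6.17e-09). AJUBA (ENSG00000129474.15, chr14:22971174-22982642, minus strand), a LIM domain protein of cell junctions that inhibits LATS kinases, had 83.9 and 92.7 CPM in the 2 GSK591 libraries and 37.4 and 41.1 CPM after Dex (log2 fold change -1.17, SE 0.119, edgeR adjusted p = 8.22e-10). In both genes the Dex libraries lay far below the GSK591 libraries. The fall of GYS1 was not seen in the authors' deposited tables, where the same difference was 0.13. BHLHE40, a repressor of clock genes, had 78.6 and 65.4 CPM in the 2 GSK591 libraries and 26.1 and 36.3 CPM after Dex (log2 fold change -1.20, SE 0.127, edgeR adjusted p = 2.42e-09). GRB7, an adaptor of receptor tyrosine kinases, had 13.1 and 13.4 CPM in the 2 GSK591 libraries and 4.64 and 7.31 CPM after Dex (log2 fold change -1.11, SE 0.198, edgeR adjusted p = 0.000315). HES1, a repressor downstream of Notch, had 7.21 and 10.1 CPM in the 2 GSK591 libraries and 4.78 and 3.56 CPM after Dex (log2 fold change -1.06, SE 0.241, edgeR adjusted p = 0.00716). The groups did not overlap in these 3 genes, but the 2 Dex libraries of GRB7 and both pairs of HES1 were uneven, and HES1 lost its call without replicate 2 of either group. Exons of AJUBA overlap 1 gene on the same strand, and those of BHLHE40 1 on the opposite strand.

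LGALS1, a galactose-binding lectin, had 6.16 and 8.84 CPM in the 2 GSK591 libraries and 3.96 and 2.79 CPM after Dex (log2 fold change -1.17, SE 0.256, edgeR adjusted p = 0.00482). HOXA7, a homeobox factor, had 7.44 and 7.37 CPM in the 2 GSK591 libraries and 3.55 and 2.89 CPM after Dex (log2 fold change -1.22, SE 0.254, edgeR adjusted p = 0.00291). Both stood near the floor of 5 CPM set for naming, and both lost their calls without Dex replicate 2, LGALS1 also without GSK591 replicate 2. UBL4A, a chaperone of tail-anchored membrane proteins, had a log2 fold change of -1.01 (edgeR adjusted p = 0.000110). PAGR1, a subunit of a histone methyltransferase complex, and C17orf67 had -0.99 and -0.99, and both overlap exons of other genes. The call of PAGR1 was lost without GSK591 replicate 1 or Dex replicate 2, and that of C17orf67 without either GSK591 library or Dex replicate 1. The noncoding genes AL583722.1, AL583722.4 and AC099568.2 completed the 15 largest falls with -1.17, -1.04 and -1.13. AL583722.1 lost its call without GSK591 replicate 2, AL583722.4 without that library or either Dex library, and AC099568.2 without GSK591 replicate 1 or Dex replicate 2. With total counts as the scaling, GRB7, UBL4A, JUN, THBS1 and SGK1 also lost their calls.

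Immediate early genes, which growth factors and stress induce within minutes, included both rises and falls. Of 24 genes 23 were tested, 1 rose and 4 fell, which is 21.7% called beside 2.09% of all genes, and the median was -0.05. IER2, a nuclear protein induced by serum, had 37.9 and 42.3 CPM in the 2 GSK591 libraries and 19.0 and 19.1 CPM after Dex (log2 fold change -1.07, SE 0.131, edgeR adjusted p = 7.99e-08). JUN, the core subunit of AP-1, had 89.2 and 90.5 CPM in the 2 GSK591 libraries and 53.0 and 56.7 CPM after Dex (log2 fold change -0.71, SE 0.120, edgeR adjusted p = 0.000122). The Dex libraries of IER2 and JUN lay well under the GSK591 libraries, and the IER2 exons overlap 1 opposite-strand gene. IER5 and SRF fell by 0.63 and 0.64 (edgeR adjusted p = 0.000990 and 0.0291), and the call of SRF was lost without any 1 of the 4 libraries and that of IER5 without replicate 2 of either group. FOSL2, another AP-1 subunit, rose instead, from 118 and 120 CPM to 187 and 158 CPM (log2 fold change 0.53, SE 0.107, edgeR adjusted p = 0.00190), and lost its call without replicate 1 of either group.

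Some inhibitors of the EGF receptor and MAP kinase route rose. Of 14 genes of the feedback list 3 rose (21.4%, beside 1.07% of all genes called higher) and 0 fell, with a median of 0.14. These were ERRFI1, SPRY1 and SPRY2. ERRFI1 had 18.8 and 18.4 CPM in the 2 GSK591 libraries and 55.3 and 51.1 CPM after Dex (log2 fold change 1.51, SE 0.125, edgeR adjusted p = 7.59e-13), and its exons overlap 1 opposite-strand gene. SPRY1, a Sprouty protein that blocks RAS activation, had 5.58 and 7.37 CPM in the 2 GSK591 libraries and 19.0 and 15.5 CPM after Dex (log2 fold change 1.41, SE 0.188, edgeR adjusted p = 6.72e-07). SPRY2, its relative, had 8.37 and 10.6 CPM in the 2 GSK591 libraries and 16.7 and 15.7 CPM after Dex (log2 fold change 0.77, SE 0.173, edgeR adjusted p = 0.00637), and lost its call without GSK591 replicate 1. Dex libraries stood above GSK591 libraries in each, by the widest margin in ERRFI1. Among 10 MAP kinase phosphatases DUSP1 and DUSP5 rose (20.0%, beside the same 1.07%) and 0 fell. DUSP5, which acts on ERK in the nucleus, had 50.6 and 50.7 CPM in the 2 GSK591 libraries and 74.2 and 91.2 CPM after Dex (log2 fold change 0.71, SE 0.146, edgeR adjusted p = 0.00456), and its call was lost without either GSK591 library or Dex replicate 2.

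Targets of the cytoskeleton-sensitive factors YAP and SRF moved in both directions. Of 17 genes 3 rose and 1, AJUBA, fell, which is 23.5% called beside 2.09% of all genes, with a median of -0.08. THBS1, a matrix glycoprotein, had 33.1 and 28.0 CPM in the 2 GSK591 libraries and 53.4 and 49.0 CPM after Dex (log2 fold change 0.74, SE 0.110, edgeR adjusted p = 9.86e-06). ANKRD1, a nuclear ankyrin repeat protein, and CCN2, a matrix protein once called CTGF, had 0.98 and 0.55 (edgeR adjusted p = 0.00167 and 0.0159). CCN2 lost its call without either GSK591 library or Dex replicate 2, and ANKRD1 without GSK591 replicate 2 or Dex replicate 1.

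Of 20 inflammatory genes that glucocorticoids are known to repress, 14 were tested, 2 rose and 0 fell, with a median of 0.16. Of all genes tested 1.07% were called higher and 1.03% lower, so 0 falls among 14 is near the background. CXCL2, a chemokine for neutrophils, rose, with 26.5 and 24.5 CPM in the 2 GSK591 libraries and 44.7 and 34.6 CPM after Dex (log2 fold change 0.63, SE 0.144, edgeR adjusted p = 0.00877). CCL20, a chemokine for lymphocytes, rose from 2 and 4 counts to 13 and 18 counts (log2 fold change 2.19, SE 0.613, edgeR adjusted p = 0.0415). Both rises depended on single libraries, CCL20 on any 1 of the 4 and CXCL2 on either GSK591 library and Dex replicate 1.

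Clock genes split. Of 15 genes PER1 and PER2 rose and BHLHE40 and DBP fell, which is 26.7% called beside 2.09% of all genes, with a median of -0.18. DBP, a clock output factor, had 48.2 and 48.5 CPM in the 2 GSK591 libraries and 35.9 and 34.3 CPM after Dex, a small fall (log2 fold change -0.46, SE 0.120, edgeR adjusted p = 0.0232) lost without any 1 of the 4 libraries.

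In the remaining lists at most 3 genes were called, beside 2.09% of all genes. BAG3, a co-chaperone, was the 1 gene called of 12 heat shock genes (log2 fold change 0.94, SE 0.151, edgeR adjusted p = 5.01e-05). ELL2, an elongation factor, was the 1 called of 19 pausing and elongation genes (0.63), and POLE, a DNA polymerase subunit, the 1 called of 22 S-phase genes (0.60). RPS16 (0.36) and RPL15 (0.39) rose among 80 cytosolic ribosomal protein genes, with a median of 0.11, and the 2.50% called is near that background. H2BC13 (-0.91), H2BC14 (-1.08) and H3C10 (-0.50) fell among 56 replication-dependent histone genes, whose median was -0.17 with 3 of 56 values above 0. The calls of ELL2 and RPL15 were lost when 3 of the 4 libraries were left out in turn, as was that of H2BC13, and those of POLE, RPS16, H2BC14 and H3C10 without any 1 of them. Integrated stress genes (12), p53 targets (20), arginine methyltransferases and their partners (10) and the 13 mitochondrially encoded genes had 0 called in the edgeR test, with 2, 6, 0 and 0 at an unadjusted p below 0.05. Over all 22919 genes tested, 3115 had an unadjusted edgeR p below 0.05. Exons of HOXA7, DBP, CCN2, ELL2 and RPL15 overlap 1 gene on the opposite strand, and those of THBS1 and KRT7 2.

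The genes that fell had a shorter median length than those that rose. Of protein-coding genes, the higher ones had a median genomic length of 25.9 kb and the lower ones of 10.5 kb, beside 31.2 kb for the 14978 tested. With total counts as the scaling the lower ones had a median of 6.91 kb. The share called lower declined over 4 equal length classes, from 2.70% below 12.2 kb to 1.31%, 0.614% and 0.267% above 76.8 kb. The share called higher was 1.44%, 1.31%, 1.15% and 1.20%. Median exonic lengths were 5.33 kb for higher, 3.79 kb for lower and 4.93 kb for all tested genes. In cells without inhibitor the shares called lower over the same classes were 0.935%, 0.481%, 0.107% and 0.0267%, and after MS023 2.40%, 1.36%, 0.454% and 0.187%. Those comparisons share no library with this one. Whether counts covered introns is not given in the sources used here, so the part of a long gene that polymerase had crossed in 15 min was not measured.

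**Figure D3:**
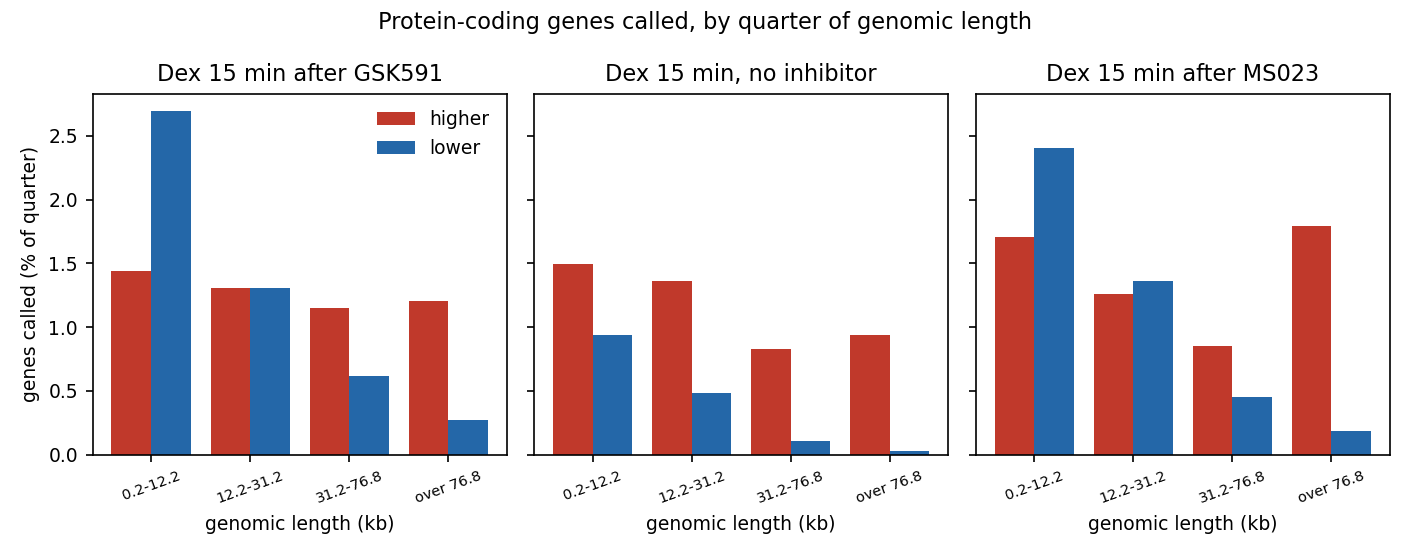
Percent of protein-coding genes called higher (red) or lower (blue), y axis, in 4 equal classes of genomic length, x axis in kb, for Dex 15 min after GSK591, without inhibitor and after MS023. The blue bars step down with length in each panel, from 2.70% to 0.267% after GSK591, while the red bars after GSK591 stay between 1.15% and 1.44%.

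The same 15 min step was measured in cells without inhibitor and after MS023. Neither comparison shares a library with that after GSK591. Dex changed 289 genes in cells without inhibitor (1.26% of those tested: 220 higher, 0.96%, and 69 lower, 0.301%) and 474 after MS023 (2.07%: 281 higher, 1.23%, and 193 lower, 0.842%). With total counts as the scaling 99.6% of the calls without inhibitor were rises in place of 76.1%, and with no filter 45.2% of those after MS023 in place of 59.3%. Leaving out 1 library at a time lowered these counts to 121 to 174 and 180 to 256. Of the 245 genes higher after GSK591, 118 were also higher without inhibitor, which is 48.2% of the 245 and 53.6% of the 220. With MS023 134 were shared, 54.7% of the 245 and 47.7% of the 281. Of the 235 lower genes, 35 were also lower without inhibitor (14.9% of the 235 and 50.7% of the 69) and 57 after MS023 (24.3% and 29.5% of the 193). No gene was called in opposite directions. The 245 higher genes had a positive value in 221 cases without inhibitor, with a median of 0.57, and the 235 lower ones a negative value in 187 cases, with a median of -0.22. The genes were chosen by their value after GSK591, so these medians are a description. Of all genes tested, 49.1% had a positive and 50.8% a negative value without inhibitor. Called in all 3 comparisons were 96 higher and 24 lower genes.

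The glucocorticoid-induced list had 22 genes higher without inhibitor and 23 after MS023, with medians of 1.11 and 1.08. PER1 went from 11.8 and 11.3 to 47.9 and 51.2 CPM without inhibitor, so its levels before Dex were above those of the GSK591 libraries. Its log2 fold change was 2.10 there, 2.68 after GSK591 and 2.49 after MS023. AJUBA fell by 1.18 without inhibitor and by 1.29 after MS023, and IER2 by 1.09 and 0.93. These values stand close to the -1.17 and -1.07 found after GSK591. Other genes lay further apart. GYS1 had -0.66 without inhibitor and -1.04 after MS023, beside -1.24 after GSK591. DUSP1 had 1.01 and 1.35, beside 0.71.

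**Figure D4:**
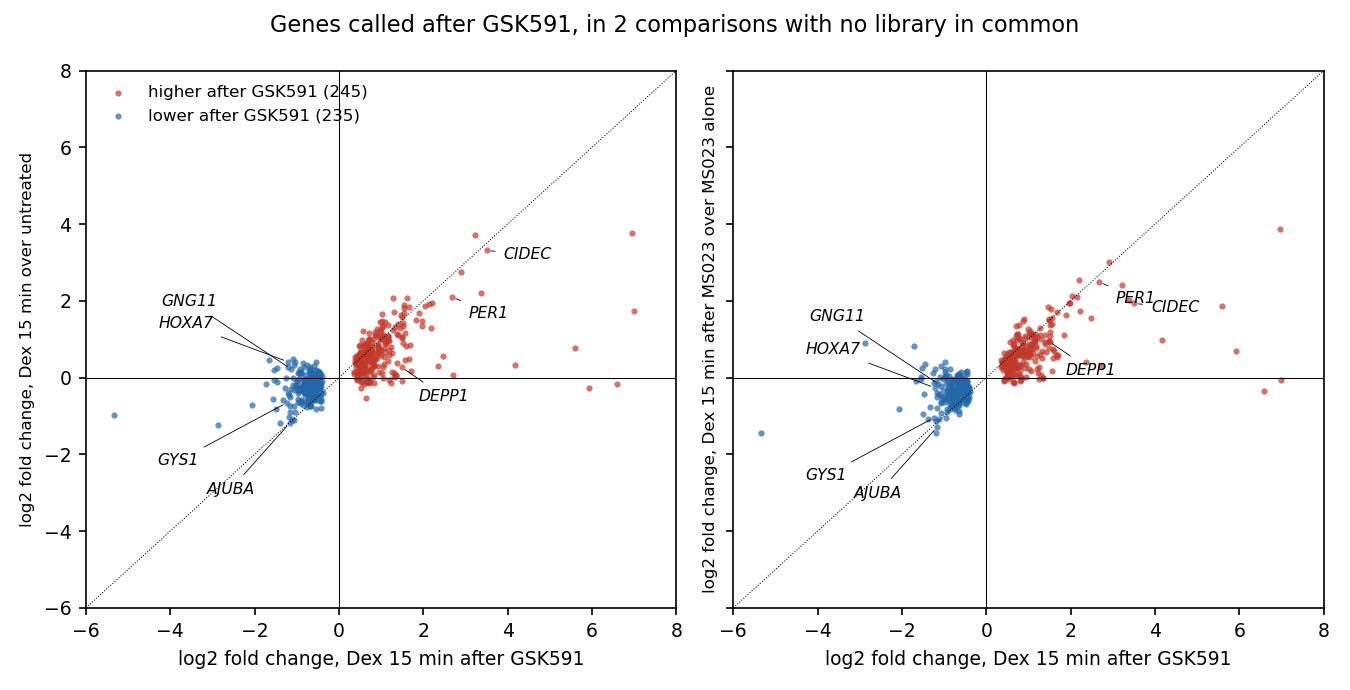
Log2 fold change of the 480 genes called after GSK591 (x axis) against their log2 fold change in cells without inhibitor (left, y axis) and after MS023 (right, y axis), with the dotted line at equal values. Genes called higher lie mostly in the upper right, 221 of 245 above 0 on the left, while GNG11 and HOXA7 lie left of 0 on the x axis and above 0 on the y axis of the left panel.

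The difference between responses was tested as an interaction, the response after GSK591 minus that without inhibitor. It was called for 1 of 22919 genes (0.00436%), with 1569 at an unadjusted p below 0.05, and by DESeq2 for 0. That gene was GNG11 (ENSG00000127920.5, chr7:93921699-93928610, plus strand), a gamma subunit of G proteins. It had 9.34 and 12.5 CPM in untreated cells and 12.6 and 13.0 CPM after Dex without inhibitor. With GSK591 it had 18.9 and 20.5 CPM in the 2 GSK591 libraries and 9.29 and 8.66 CPM after Dex. The GSK591 libraries thus stood above every other group shown here, and Dex brought the level to that of untreated cells or below. The response after GSK591 was -1.14 (SE 0.179, edgeR adjusted p = 3.27e-05) and that without inhibitor 0.23 (edgeR adjusted p = 0.893). The difference was -1.36 (SE 0.251, edgeR adjusted p = 0.0397). It was not called with DESeq2, total-count scaling or the compared groups alone, nor when untreated replicate 1, either Dex library, either GSK591 library or GSK591 then Dex replicate 2 was left out.

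Other genes missed the threshold of the interaction. HOXA7 had 5.12 and 4.43 CPM in untreated cells and 7.01 and 5.70 CPM after Dex, a value of 0.41 that was not called, and the difference from its fall after GSK591 was -1.63 (SE 0.345, edgeR adjusted p = 0.0651). DEPP1 had a rise of 1.48 after GSK591 beside 0.27 without inhibitor, a difference of 1.22 (SE 0.278, edgeR adjusted p = 0.152). For the induced list the interaction had a median of -0.07 with 0 genes called by edgeR and 2 at an unadjusted p below 0.05. Missing the threshold does not show that the responses were alike. The response after GSK591 against that after MS023 had 0 genes called by edgeR and 0 by DESeq2, with 1368 at an unadjusted p below 0.05. DUSP1 differed there by -0.64 (SE 0.153, edgeR adjusted p = 0.454).

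Levels at 3 h of Dex after GSK591 showed which early changes lasted. Against 15 min, 3259 genes were called (14.2% of those tested), 1844 higher (8.05%) and 1415 lower (6.17%), and 1441 to 2786 genes without 1 library. With total counts as the scaling 79.9% of the calls were rises in place of 56.6%. This comparison shares the 15 min libraries with the one above, so values are set side by side and no overlap is read. FKBP5 went on to 33.6 and 37.4 CPM at 3 h (log2 fold change 1.97, SE 0.248, edgeR adjusted p = 1.05e-05). TSC22D3 went on to 121 and 108 CPM (log2 fold change 0.92, SE 0.118, edgeR adjusted p = 6.87e-08), and CIDEC to 17.1 and 18.0 CPM (1.29). These were genes whose level at 15 min was well short of that at 3 h. PER1 was at 39.6 and 42.8 CPM, a difference from 15 min that was not called (log2 fold change 0.04, SE 0.130, edgeR adjusted p = 0.881). ZFP36, NFKBIA, DUSP1 and ANGPTL4 had differences of 0.24, -0.15, 0.00 and -0.03, none of them called.

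Some early rises had receded by 3 h. CAVIN2 was back at 11.2 and 9.97 CPM (log2 fold change -1.67, SE 0.185, edgeR adjusted p = 4.65e-09), close to the GSK591 libraries. KLF6 was at 95.9 and 94.2 CPM (log2 fold change -0.81, SE 0.106, edgeR adjusted p = 9.08e-08) and DUSP5 at 29.2 and 19.1 CPM (log2 fold change -1.78, SE 0.154, edgeR adjusted p = 2.89e-10), the latter below its level before Dex. Of the falls, AJUBA was at 67.2 and 77.3 CPM (0.88) and GYS1 at 74.9 and 68.5 CPM (0.70), both part of the way back. LGALS1 passed its starting level, at 14.3 and 14.0 CPM (log2 fold change 2.10, SE 0.233, edgeR adjusted p = 1.6e-09). BHLHE40 and GNG11 stayed low at 34.4 and 33.8 CPM and 8.60 and 8.71 CPM. The induced list had 10 genes higher and 3 lower at 3 h than at 15 min, and the inflammatory list 0 higher and 9 lower of 14, with a median of -0.86.

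**Figure D5:**
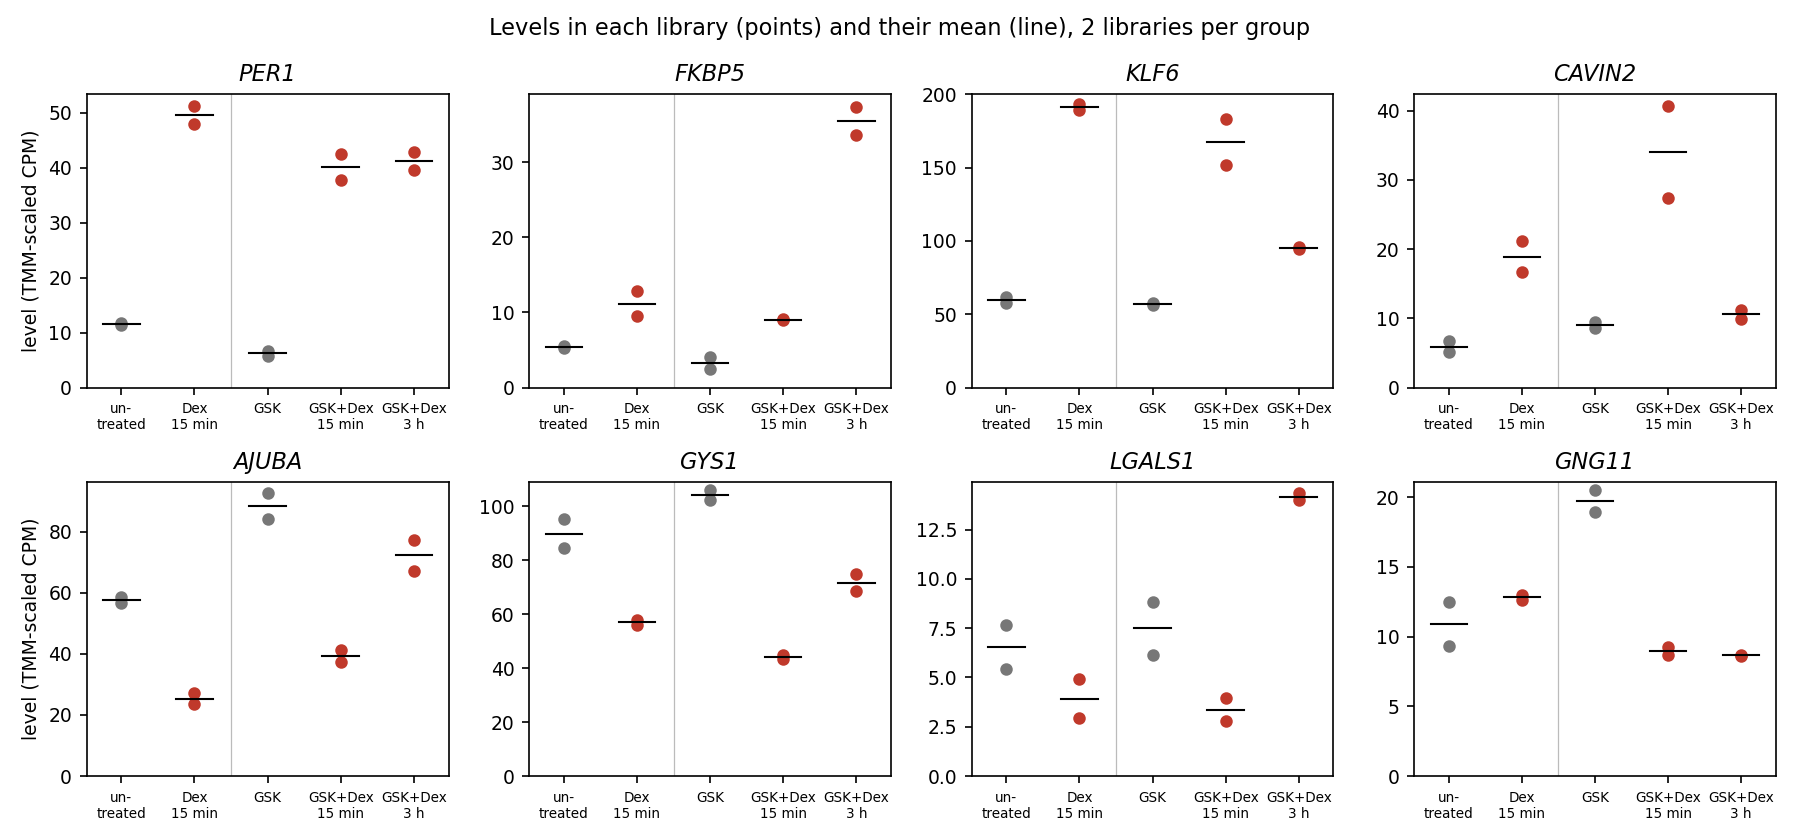
Level in CPM (y axis, from 0) of 8 genes in each of 2 libraries (points) and their mean (line) for untreated cells, Dex 15 min, GSK591, GSK591 then Dex 15 min and GSK591 then Dex 3 h (x axis), with Dex groups in red. PER1 is level from 15 min to 3 h, CAVIN2 returns to the GSK591 level, LGALS1 rises past it, and GNG11 is highest in the GSK591 libraries at 18.9 and 20.5 CPM.

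The authors' own comparisons are each against untreated cells, so the step from GSK591 to GSK591 then Dex was read as the difference of 2 of their log2 fold changes. The authors' deposited tables list 23 of the 30 largest changes. In them, 11 of 11 rises were higher and 11 of 12 falls lower after Dex than with GSK591 alone. The exception was GYS1, the largest fall by the naming rule: the authors' deposited tables give it -0.28 with GSK591 and -0.15 with GSK591 then Dex, a difference of 0.13, beside -1.24 from the counts. These counts of rises and falls go by sign alone, and sizes varied. HOXA7, C17orf67 and PAGR1 had differences of -0.23, -0.17 and -0.51 there, beside -1.22, -0.99 and -0.99 from the counts. HES1, BHLHE40 and GNG11 had larger falls there, at -1.53, -1.42 and -1.20, beside -1.06, -1.20 and -1.14. Of the rises, PER1 and ANGPTL4 were larger there, at 3.68 and 3.43, beside 2.68 and 2.22. LURAP1L and FKBP5 were smaller there, at 1.35 and 1.49, beside 1.55 and 1.50. Why the authors' values differ from those of the counts was not tested.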

How the data were processed

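PRO-seq libraries of A549 cells were counted per gene by the authors with featureCounts 2.0.1 (Subread) on hg38, per the submitters' processing notes. The aligner, the counted feature type and the use of strand are not given in the sources used here. The deposited table holds raw read counts for 58780 genes, all of which matched GENCODE 29 by identifier. The authors' deposited log2 fold changes against untreated cells were used only for the last comparison.

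Counts were filtered with filterByExpr (minimum count 10, minimum total 15), leaving 22919 genes, and scaled by TMM. All 15 groups entered 1 edgeR quasi-likelihood fit (edgeR 4.0.16, limma 3.58.1, R 4.3.3), and p-values were adjusted by Benjamini-Hochberg over all genes tested, with a threshold of 0.05, for each of 6 contrasts. DESeq2 1.42.0 was an alternative, beside other scaling, no filter, fewer groups or genes, a pseudogene covariate, a replicate block and leaving out each library. Length medians under each alternative were added after seeing the data. The fit was tested on simulated data with 200 of 22919 genes changed by 0.5, 1 or 2 on the log2 scale. In the comparison after GSK591, 4.48%, 34.3% and 71.2% of these were called, and in the interaction 0%, 23.9% and 53.0%. False calls were 1.35% and 3.77% of the calls. Many changes of such sizes were thus missed. Tables were made with Python 3.11.15 and pandas 2.3.3.

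Named genes are the 15 largest rises and falls of the called genes whose groups do not overlap and whose mean reached 5 CPM, genes called in an interaction, called members of the gene lists, and PRMT5, NR3C1, FKBP5, TSC22D3, PER1, DUSP1, KLF9 and CEBPD. TCF19, PSORS1C3, WAKMAR2, ZBTB16 and the genes of the closing observations were named after their values were seen. The comparison and the lists were chosen with earlier results of these data known. No 2 libraries held identical values. Some genes are not reported here.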

Additional observations from a re-analysis of the deposited data

Results flagged for a closer look

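GNG11 was the gene whose response to 15 min of Dex differed between cells kept in GSK591 and cells without inhibitor in the edgeR interaction test. The difference was -1.36 on the log2 scale (SE 0.251, edgeR adjusted p = 0.0397). Both GSK591 libraries lay above both GSK591 then Dex libraries, which also held for 21.9% of all genes tested. Both untreated libraries lay below both Dex libraries without inhibitor, but by a small step that was not called. Their means were 10.9 CPM (SD 2.23) untreated and 12.8 CPM (SD 0.255) after Dex, so a rise without inhibitor was not shown. Across the alternatives the difference ran from -1.62 to -1.18, and its adjusted p from 0.000633 to 0.653.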

How the results depend on the processing

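None of the 70 named genes changed sign under an alternative, but the balance of rises and falls did: 245 and 235 after GSK591 became 257 and 266 with no filter on low counts, 182 and 190 without GSK591 then Dex replicate 1, and 244 and 245 without mitochondrial and ribosomal RNA genes. After MS023 281 and 193 became 214 and 259 with no filter, and for 3 h against 15 min 1844 and 1415 became 985 and 1030 with only the compared groups. The count of genes called after GSK591 moved from 480 to 264 with DESeq2, 164 with only the groups of the comparison in the fit and 72 with total counts as the only scaling. After MS023 the same settings gave 264, 730 and 71 in place of 474, and for 3 h against 15 min 2021, 2015 and 1676 in place of 3259. The interaction had 1 gene called, and 0 with DESeq2, 0 with only the compared groups, 0 with total counts, 17 with no filter on low counts and 21 with a covariate for the share of processed pseudogenes. GSK591 against MS023 had 0, and 2 with no filter and 2 with that covariate. The median length of genes called lower was 6.91 kb with total counts, in place of 10.5 kb. Leaving out 1 library at a time gave 161 to 372 genes after GSK591, 121 to 174 without inhibitor (289 with all), 180 to 256 after MS023, 1441 to 2786 for 3 h against 15 min, 0 to 7 for the interaction and 0 to 1 for GSK591 against MS023. It gave 18 to 19 induced genes, and median lengths of 17.4 to 37.6 kb for higher and 8.06 to 11.4 kb for lower genes. The lone library left in a group was assumed to vary like the other groups. With total counts the median of all genes was 0.31 without inhibitor, -0.15 after MS023, 0.16 for 3 h against 15 min, -0.27 for the interaction and 0.19 for GSK591 against MS023. Of 70 named genes, 36 lost their call with total counts, 23 with only the compared groups, 10 with DESeq2 and 21 to 25 without 1 library. The cause of these shifts was not tested. With the replicate number as a block, 506 genes were called after GSK591, 310 without inhibitor, 509 after MS023 and 3304 for 3 h against 15 min, and the block changed no call of a named gene. Correlations of the replicate deviations were -0.03 after GSK591, -0.19 without inhibitor and 0.04 after MS023. The labels do not say whether libraries with the same number were made together, and these correlations cannot settle it. Crossing the untreated numbers, chosen after seeing the data, gave 308 genes without inhibitor. Depth, at 2553476 to 3413582 nuclear counts a library, limits what can be said of low genes such as CIDEC and CCL20.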

Other observations

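Other genes called after 15 min of Dex, picked for description after their values were seen, fall outside the lists. S100A10, a partner of annexin A2, had 11.5 and 13.3 CPM in the 2 GSK591 libraries and 27.7 and 24.8 CPM after Dex (log2 fold change 1.08, SE 0.191, edgeR adjusted p = 0.000833), and ANXA2, annexin A2 itself, had 139 and 143 CPM in the 2 GSK591 libraries and 252 and 235 CPM after Dex (log2 fold change 0.78, SE 0.0923, edgeR adjusted p = 3.4e-08). Both Dex libraries lay above both GSK591 libraries in each. PDLIM1, an actin-associated adaptor, rose by 0.76 on the log2 scale. IL18, IL6R and IFNGR1 rose by 0.74, 0.66 and 0.65, while PDGFA and VEGFB, both growth factors, had values of -0.75 and -0.82.

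Among enzymes of glycolysis and glycogen use, LDHA, PFKP and PYGB rose by 0.50, 0.70 and 0.49, and ALDOA and ENO3 fell, with values of -0.66 and -0.60. FOXO1, a factor restrained by insulin signalling, had 8.83 and 9.38 CPM in the 2 GSK591 libraries and 16.0 and 13.8 CPM after Dex (log2 fold change 0.70, SE 0.179, edgeR adjusted p = 0.0215). PIM1, a survival kinase, had 39.1 and 38.6 CPM in the 2 GSK591 libraries and 23.6 and 23.9 CPM after Dex (log2 fold change -0.71, SE 0.130, edgeR adjusted p = 0.000494). Its response differed from that without inhibitor by -0.87, which missed the threshold (edgeR adjusted p = 0.0651). PMAIP1, a BH3-only protein of apoptosis, rose by 0.57. HES4, a relative of HES1, had a value of -0.79, also a fall. Exons of PFKP, ALDOA, ENO3 and FOXO1 overlap another gene, so their counts are uncertain.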
